A study of Mus musculus with 4 samples.

Results

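The comparison set an anti-Ldb1 library against a control IgG library, 2 of the 4 samples of the series. Both were made by chromatin immunoprecipitation and sequencing from mouse bone marrow progenitors left after lineage-positive cells had been removed with magnetic beads. The cells were fresh and formaldehyde-crosslinked, and the 2 groups shared everything the labels describe except the antibody. The labels give no strain, age, sex, genotype or number of animals, and name no treatment besides the depletion. Each antibody has 1 library. Every interval below is a 95% exact interval of counting error in tags or regions of these 2 libraries. None covers variation between animals or immunoprecipitations. Intervals on region densities and neighbour shares treat regions as independent. Regions were clustered, so those intervals are too narrow. The series was made to study what Ldb1 does in the upkeep of blood stem cells, and the comparison asks where along the autosomes Ldb1 sat, how wide and how strong its sites were, and how they were spaced. The files hold tag positions and no RNA, so the labelled cell type could not be checked against marker genes.

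Ldb1 (LIM domain binding protein 1) does not bind DNA itself. It binds the LIM domains of partners such as Lmo2, which in blood progenitors connect it to DNA-binding proteins of the Tal1 and Gata families, and it associates with itself. Through that self-association it is known for holding distant regulatory elements together, as between the beta-globin locus control region and its genes, which is why the spacing of its sites along a chromosome is of interest.

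Only tags on chromosomes 1 to 19 were used, and each chromosome, 5' end and strand counted once. This kept 3866477 Ldb1 tags of 5772492 and 3401045 IgG tags of 4865007, so 33.0% and 30.1% of the autosomal tags were repeats. A single IgG position, at 60832754 on chromosome 16, held 112803 copies, or 2.32% of the autosomal IgG tags, and counted as 1. The most repeated Ldb1 position had 1326 copies. Forward tags made up 49.95% of the Ldb1 and 50.01% of the IgG tags kept. A tag of either library was found in 2072 Mb of 1 kb bins, called the covered genome here. Positions are in the mm8 build of the mouse genome. Genes, exons and introns were not assigned, because no mm8 annotation was used here.

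Without any call of sites, Ldb1 tags were more concentrated than IgG tags. The fullest 1% of 10 kb bins held 4.84% of the Ldb1 tags (4.82 to 4.86) and 2.47% of the IgG tags (2.45 to 2.48). With Ldb1 thinned to the IgG tag number its share was 4.85% (4.83 to 4.87), so the difference was as large at equal depth. In bins of 1 kb the fullest 1% held 8.06% of the Ldb1 tags against 4.29% of the IgG tags, and in bins of 100 kb 2.88% against 1.79%.

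The distance between tags showed the scale of this concentration. Tags of the same library were paired by distance, and pair numbers were set relative to those 1 to 2 Mb apart. Ldb1 pairs 0.1 to 0.2 kb apart were 3.71 times as frequent as distant pairs, against 1.33 times for IgG. At 0.2 to 0.5 kb the values were 1.78 and 1.19, and at 1 to 2 kb 1.22 and 1.11. The relative frequency of Ldb1 pairs was thus highest at the shortest distances. A smaller excess per distance reached much further, with 1.12 against 1.05 at 5 to 10 kb and 1.07 against 1.03 at 50 to 100 kb. After removal of all tags in or within 1 kb of the Ldb1 regions described next, Ldb1 pairs stood at 1.53 at 0.1 to 0.2 kb and at 1.04 at 50 to 100 kb, and IgG pairs at 1.34 and 1.03. Ldb1 tags thus still paired slightly more than IgG tags at both distances outside the called regions. Between 0.2 and 5 kb the outside values nearly coincided. They were 1.208 for Ldb1 and 1.200 for IgG at 0.2 to 0.5 kb, and 1.080 and 1.078 at 2 to 5 kb.

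**Figure D1:**
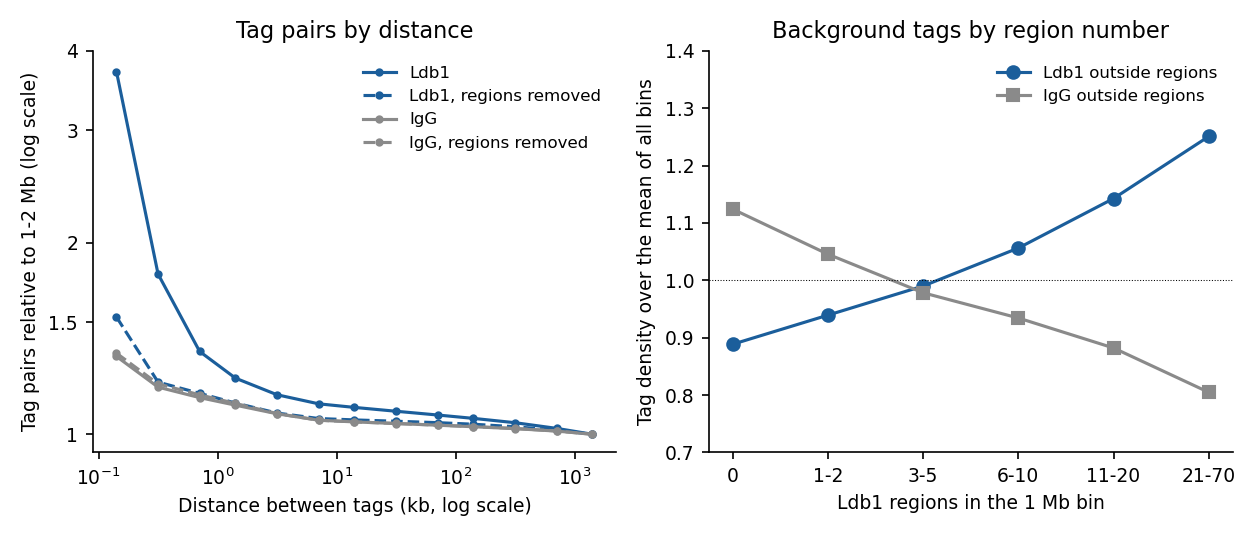
Left, frequency of tag pairs relative to pairs 1 to 2 Mb apart (log scale) by distance between the tags in kb (log scale), for Ldb1 and IgG, with all tags and after removal of Ldb1 regions and 1 kb on each side; Ldb1 falls from 3.71 at 0.1 to 0.2 kb to 1.07 at 50 to 100 kb. Right, tag density outside Ldb1 regions relative to the mean of all 1 Mb bins, by the number of Ldb1 regions in the bin, where Ldb1 is at 1.25 and IgG at 0.805 in bins with 21 to 70 regions.

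Sites were called in windows of 400 bp every 100 bp. A window counted as occupied if its Ldb1 tags exceeded the local expectation at least 4-fold at a false discovery rate of 0.01, in a Poisson test (one-sided, Benjamini-Hochberg adjusted) that compares these 2 libraries only. Of 9676327 windows with an Ldb1 tag, 47772 were occupied, or 0.494%. Joined where they overlapped or touched, they made 13564 Ldb1 regions. Exchanging the libraries gave 24 regions from 0.000373% of windows, though IgG had fewer tags and so less power. The Ldb1 regions covered 8.98 Mb, or 0.434% of the covered genome. They held 232223 Ldb1 tags, 6.01% of those kept (5.98 to 6.03), and 13957 IgG tags, 0.410% (0.404 to 0.417). Scaled by all kept tags, Ldb1 was 14.6-fold above IgG over the regions together (14.4 to 14.9), which describes regions chosen for many Ldb1 and few IgG tags. The excess over scaled IgG came to 5.60% of the Ldb1 library, and most of its tags lay outside. With repeated tags counted as deposited, 81185 regions were called in place of 13564, with 17.8% of the Ldb1 tags, so the number of regions depends on how repeats are treated.

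Properties of the tags that the calling did not use also differed inside the regions. Among positions with a single tag, 75.7% of Ldb1 tags inside regions had no mismatch (75.5 to 75.9), against 70.5% outside (70.4 to 70.5). IgG tags went the other way, with 59.5% inside (58.5 to 60.4) and 61.4% outside (61.3 to 61.5). Repeats were 39.1% of the deposited Ldb1 tags inside regions (38.97 to 39.3) and 32.6% outside, and 27.3% (26.7 to 27.9) and 30.1% of the IgG tags. Regions were chosen for densely placed Ldb1 tags, which can more often share a position, so the Ldb1 repeat share is not independent of the calling. The strands were balanced inside regions, with 49.9% forward Ldb1 tags (49.7 to 50.1).

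Ldb1 regions were narrow. Their median width was 600 bp, with quartiles of 500 and 700 bp, and the smallest possible width was the 400 bp of 1 window. Exactly 400 bp was the width of 2583 regions, or 19.04% (18.4 to 19.7). Another 7611 regions, 56.1%, were 500 to 700 bp wide, and 2591, 19.1%, were 800 to 1000 bp wide. Only 779 regions, 5.74%, exceeded 1000 bp, 110 exceeded 1500 bp and 15 exceeded 2000 bp. No region was longer than 5100 bp. The median number of tags in the best 400 bp window was 7 at a width of 400 bp, 10 at 500 to 700 bp, 21 both at 800 to 1000 bp and at 1100 to 1500 bp, and 35.5 above 1500 bp. Width and best-window tags had a Spearman's rho of 0.815 over the 13564 regions. Both were read from the same tags, and a taller site stays above the threshold further from its centre.

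The underlying enrichment was narrower than the regions. Around the Ldb1 summits, which are the positions with most tags within 50 bp, the pooled Ldb1 density within 200 bp on each side was 12.7 times that of flanks 3 to 5 kb away (12.7 to 12.8). IgG was at 1.17 times its own flanks (1.15 to 1.20). Ldb1 density had fallen to 2.31 times the flanks at 200 to 500 bp, 1.43 times at 500 to 1000 bp and 1.20 times at 1 to 2 kb. The summit was chosen on these tags, which sharpens the peak. The centre was therefore also placed with forward tags alone, and reverse tags, which had no part in placing it, were counted around it. Reverse tags, smoothed over 50 bp, then peaked 125 bp downstream of the centre. They stayed above the midpoint between flank level and peak over 150 bp. At the 1114 regions with at least 30 tags the same distance of 125 bp and the same width of 150 bp were found, with a peak 85.6 times the flanks, and at the 10098 regions with 7 to 14 tags the values were 125 bp, 160 bp and 15.3 times. The classes were formed from tag counts that include reverse tags, so the heights only describe them. The width of the pooled peak differed between these classes by 1 step of 10 bp. Over the autosomes as a whole, forward and reverse tags were most often 111 bp apart in the Ldb1 library.

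**Figure D2:**
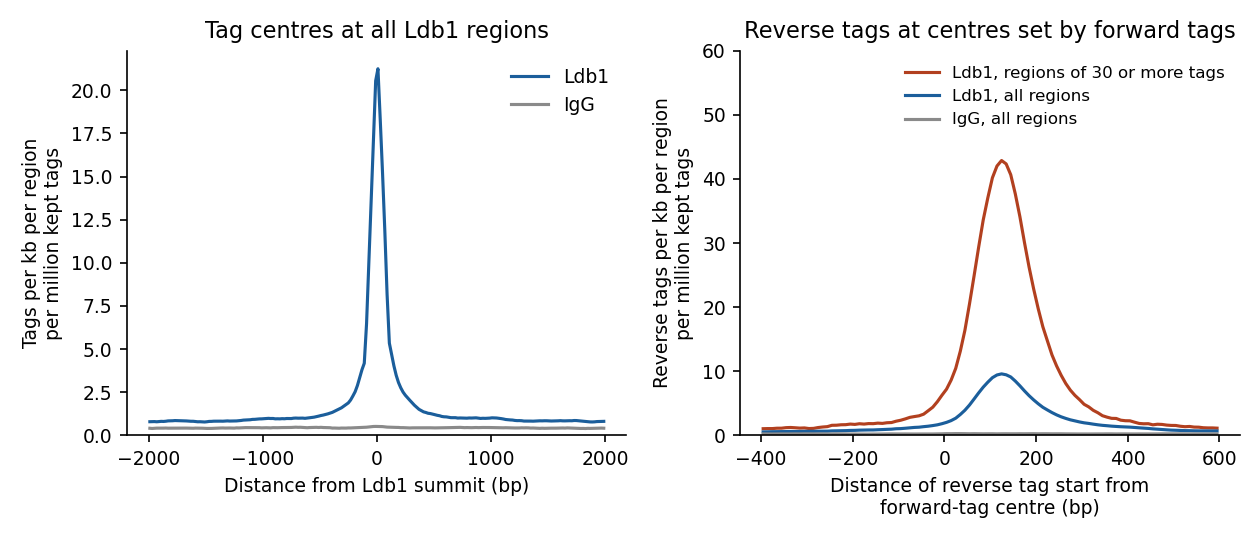
Left, density of Ldb1 and IgG tag centres (tags per kb per region, scaled by all kept tags) by distance in bp from the summits of all 13564 Ldb1 regions. Right, density of reverse-strand tags by distance in bp from a centre set by forward-strand tags alone, for all regions and for the 1114 regions with at least 30 tags; both Ldb1 curves peak at 125 bp and IgG stays near the axis.

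Wide regions often had more than 1 peak. A further summit was counted where at least 5 tags lay within 50 bp, at least 300 bp from the main summit, at 50% or more of its height and with a dip between them. Of the 779 regions over 1000 bp, 318 had one, or 40.8% (37.3 to 44.4), a median of 493.5 bp from the main summit. Among the 5942 regions of 700 to 1000 bp there were 232, or 3.90% (3.43 to 4.43). Narrower regions were not searched. Part of this contrast follows from the definitions, since nearby peaks join into 1 wide region and a narrow region has little room 300 bp from its summit. The widest region, on chromosome 1 from 24565601 to 24570700, was 5100 bp long with 340 Ldb1 and 2 IgG tags, yet its best window held only 47 Ldb1 tags. Its neighbours were 647 kb and 6250 kb away. The IgG file lists 935 mitochondrial tags and the Ldb1 file none, and whether this region resembles mitochondrial DNA was not tested. The next widest was 3700 bp long, on chromosome 5 from 135202601 to 135206300, with 164 Ldb1 tags and 1 IgG tag, and lay 3.75 kb from another region. The third, on chromosome 2 from 22439901 to 22442500, was 2600 bp long with 102 Ldb1 and 4 IgG tags.

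Strength was spread very unevenly. The best 400 bp window held a median of 10 Ldb1 tags and 26 at the 90th percentile, and 248 in the strongest region. The corresponding enrichments over expectation were 10.7-fold, 28.1-fold and, for the highest fold, 292-fold. The smallest called count was 7 tags, and 2960 regions, or 21.8%, had exactly that. Regions with 15 or more tags numbered 3466, or 25.6% of the list, with 54.8% of the region tags: 2352 had 15 to 29 tags, 788 had 30 to 59, 262 had 60 to 119 and 64 had 120 or more. The 136 strongest regions, 1% of the list, held 8.77% of all region tags, and the strongest 10% held 35.3%. At least 16-fold enrichment was reached by 3398 regions (25.1%), 32-fold by 1149 (8.47%), 64-fold by 356 (2.62%) and 128-fold by 75 (0.553%). Regions were most numerous near the smallest count, and weaker places were not detectable at this depth. With Ldb1 thinned to the IgG tag number, 11245 regions were called.

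From regions with 10 to 14 tags up to those with 60 to 119, IgG did not rise with Ldb1 strength to the same degree. Below that range the scaled ratio of Ldb1 to IgG fell as Ldb1 tags rose. Over the 64 strongest regions there were 11431 Ldb1 and 270 IgG tags, a scaled ratio of 37.2 (33.0 to 42.2). In that class 2 regions with 20 or more IgG tags held 155 of the 270, and without them, a setting added after the data were seen, the ratio was 84.2 (70.05 to 102.05). For 60 to 119 tags the ratio was 42.97 (39.3 to 47.1), or 49.4 (44.8 to 54.4) without 2 such regions. Leaving out regions for their many IgG tags raises the ratio by construction, so 84.2 and 49.4 only describe the remaining regions. With all regions kept, the 64 strongest were not above this class, and the 2 intervals overlap. At 30 to 59 tags it was 26.8 (25.3 to 28.4), at 15 to 29 tags 13.5 (13.02 to 13.9), and at 10 to 14 tags 9.91 (9.62 to 10.2). The ratio was higher again at 8 to 9 tags, 11.99 (11.5 to 12.53), and at 7 tags, 12.9 (12.3 to 13.6), where a window passed the rule only with few IgG tags around it. Of all regions, 39.4% had no IgG tag and 34.3% had 1, and a count of 0 allows up to 3. In 42.0% of regions the expectation was the genome mean of 0.747 tags a window. The folds of such regions are set by that mean and not by a local control. A fold at the median rested on few tags. Of the regions at that fold, 3 lay on chromosome 1 from 13368901 to 13369300, 16638401 to 16639000 and 16642001 to 16642500, and each had 8 Ldb1 tags in the best window (exact Poisson interval 3.45 to 15.8) and no IgG tag. The same fold of 10.7 was shared by 863 regions, of which these are the first by position.

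**Figure D3:**
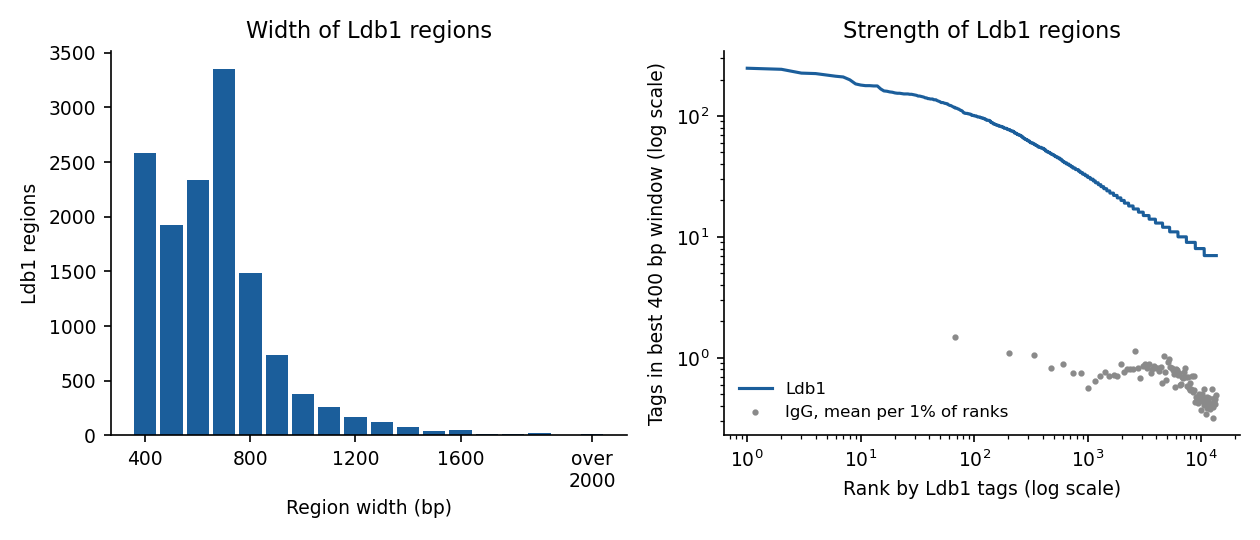
Left, number of Ldb1 regions by width in bp, with widths over 2000 bp in the last bar; most lie between 400 and 800 bp. Right, tags in the best 400 bp window (log scale) by rank of the region (log scale), with the Ldb1 tags of every region falling from 248 to 7 and the mean IgG tags in the same windows for each 1% of the ranks.

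The region with most Ldb1 tags on each of the 19 autosomes was examined one by one. On 18 of them it was a sharp site low in IgG: 900 to 2000 bp wide, with 101 to 248 Ldb1 tags in the best window, 62.0-fold to 292-fold above expectation, and at most 3 IgG tags in that window. IgG had 0 tags in 9 of these windows and 1 in 7. The strongest lay on chromosome 16 from 32428401 to 32430000, with 248 Ldb1 tags (218 to 281) against 1 IgG tag, 273-fold. Those of chromosome 8 (87591201 to 87592300) and chromosome 1 (182687101 to 182688200) had 226 and 224 tags. The site on chromosome 7, from 24085501 to 24086800, held 218 Ldb1 tags and 0 IgG tags. Its 292-fold, the highest of all regions, was taken over the genome mean of 0.747 tags a window, as were the folds of 6 of the 18 sites in all. Further sites with over 170 tags were on chromosome 18 from 32685001 to 32686100 (210 tags, 231-fold), chromosome 15 from 38487401 to 38489300 (199 tags, 267-fold) and chromosome 11 from 95172301 to 95173700 (178 tags, 238-fold).

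The other autosomes had leading sites of similar form. Chromosome 14 had 161 tags from 53659701 to 53660700, chromosome 4 had 160 from 114593201 to 114594400, chromosome 6 had 158 from 29650601 to 29651900 and chromosome 2 had 155 from 75504601 to 75506500. Chromosome 5 had 152 from 121476301 to 121477400, chromosome 10 had 148 from 80784801 to 80786100, chromosome 9 had 143 from 21712401 to 21714400 and chromosome 12 had 141 from 111421801 to 111422800. The leading sites of chromosome 19 (4113001 to 4114000), chromosome 13 (73965901 to 73966800) and chromosome 3 (60872901 to 60873800) had 104, 103 and 101 tags. Of the 18 sites, 10 had another Ldb1 region within 5 kb, and the largest distance to the nearest one was 39.2 kb.

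Chromosome 17 was the exception. Its region with most Ldb1 tags, from 39456401 to 39456900, had 243 tags in the best window, and IgG had 69 there and 945 within 10 kb. The enrichment was 4.02-fold, the lowest of all regions, and the nearest region was 814 kb away. It was also the region with most IgG tags. The next by IgG tags, on chromosome 11 from 108827701 to 108828200, had 154 Ldb1 and 73 IgG tags (4.13-fold), and the third, on chromosome 17 from 35839201 to 35839800, had 85 and 36 (5.07-fold). Only 5 of the 13564 regions had 20 or more IgG tags, and 141, or 1.04%, had 5 or more. A high Ldb1 count alone thus did not mark these few places as sites like the other 18.

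Ldb1 regions were found on every autosome, but not evenly. Over all autosomes there were 6.55 regions per covered Mb. Chromosome 11 was the densest with 10.9 (10.3 to 11.5), followed by chromosome 19 with 9.996 (9.15 to 10.9), chromosome 17 with 8.77 (8.13 to 9.45) and chromosome 7 with 7.96 (7.45 to 8.49). Chromosome 3 was the sparsest with 4.26 (3.92 to 4.62), and chromosomes 14, 18 and 1 had 4.50 (4.10 to 4.94), 4.89 (4.41 to 5.41) and 4.92 (4.59 to 5.26). The densest had 2.55 times as many per Mb as the sparsest. Counting intervals lay wholly above the overall density on 6 chromosomes, wholly below it on 8 and across it on 5. They treat regions as independent, but the number of regions per 1 Mb bin had a variance 9.83 times its mean. The intervals are thus too narrow, and this split may overstate how clearly chromosomes differ. Neighbours in the order often had overlapping intervals, as did chromosomes 11 and 19, and chromosomes 3 and 14. The share of a chromosome's Ldb1 tags in regions went from 3.91% on chromosome 3 to 8.68% on chromosome 11.

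Typical strength and width were similar in value between chromosomes, though small whole counts allow few values for a median. The median fold was between 10.4 and 10.995 on all 19, the median best-window count was 9 to 11 tags and the median width 600 to 700 bp. The scaled Ldb1 to IgG ratio inside regions went from 12.9 (11.8 to 14.1) on chromosome 19 to 16.1 (14.99 to 17.2) on chromosome 8, and these 2 intervals do not overlap. The ratio outside regions, scaled by the tags outside, was highest on chromosome 11, at 1.14, and lowest on chromosome 3, at 0.910. Over the 19 chromosomes it had a Spearman's rho of 0.946 with the density of regions; all points share the same 2 libraries. IgG tags per covered kb were between 1.498 on chromosome 7 and 1.73 on chromosome 3. The part of this background in the density of calls was not tested. With IgG left out of it, chromosome 11 had 2.49 times the density of chromosome 3. With an expectation that was also at least the Ldb1 density in the 50 kb around a window, a setting chosen after the data were seen, the ratio was 2.33. Among the 1114 regions with at least 30 tags it was 2.44, and chromosome 14 was then the sparsest in place of chromosome 3.

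**Figure D4:**
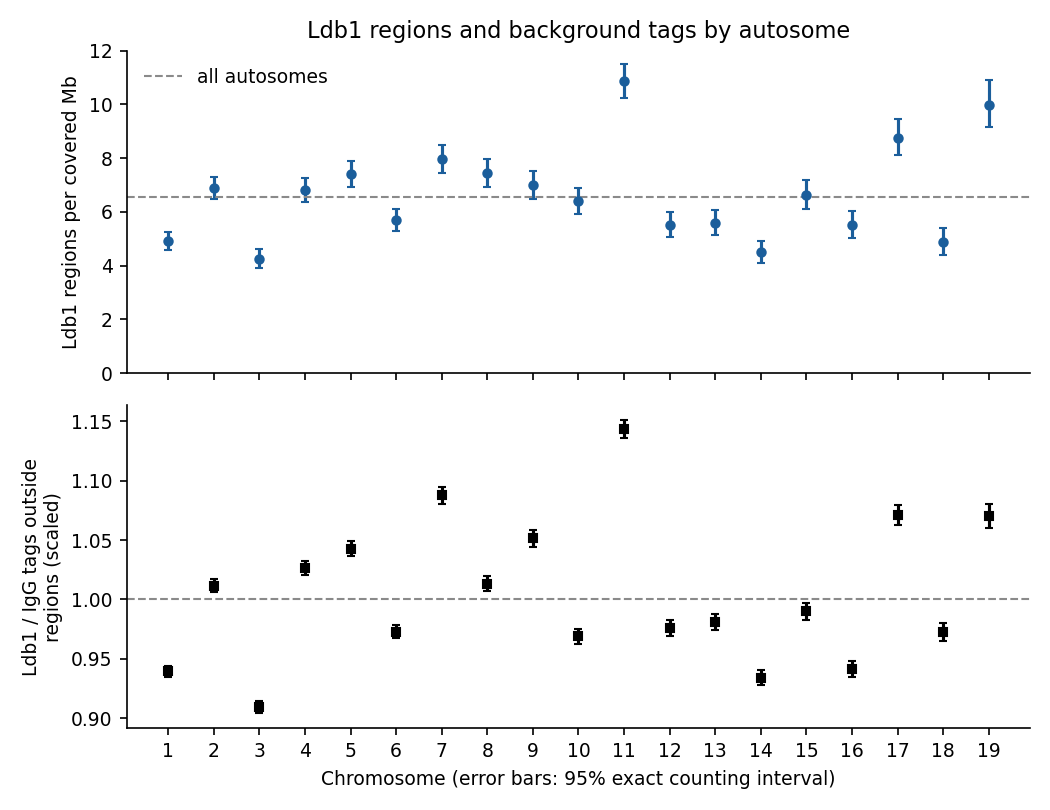
Top, Ldb1 regions per covered Mb on each autosome, with the density of all autosomes as a dashed line. Bottom, ratio of Ldb1 to IgG tags outside regions, each scaled by its total outside regions. Error bars are 95% exact counting intervals; chromosome 11 is highest and chromosome 3 lowest in both panels.

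Regions were denser towards the far end of the chromosomes. Mouse chromosomes are numbered from the centromere, and each was divided into 10 parts of equal length from its first to its last tag. Part 1 had 4.84 regions per covered Mb (4.54 to 5.16), part 9 had 8.38 (7.99 to 8.77) and part 10 had 9.84 (9.42 to 10.3), which is 2.03 times part 1. The rise was not even, as part 2 had 6.45 (6.10 to 6.81) and part 3 had 5.09 (4.79 to 5.403). Part 10 was denser than part 1 on 16 of 19 chromosomes. It was sparser on chromosomes 17, 18 and 19, with chromosome 19 going from 29.6 per Mb in part 1 to 7.67 in part 10. The outside ratio of Ldb1 to IgG was also highest in part 10, at 1.16 (1.15 to 1.17), against 0.949 (0.944 to 0.953) in part 1. With the Ldb1 tags in 50 kb as a further expectation part 10 had 1.91 times the density of part 1.

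Neighbouring summits were usually far closer than an even spread would place them. The 13545 distances between neighbours on the same chromosome had a median of 38.2 kb and a mean of 176 kb. The 25th percentile was 10.9 kb and the 75th 116 kb. Within 2 kb lay 905 neighbours, or 6.68% (6.27 to 7.12), within 5 kb 14.7% (14.2 to 15.4), within 10 kb 23.6% (22.9 to 24.3) and within 100 kb 72.0% (71.2 to 72.7). The closest summits of separate regions were 317 bp apart. At the other end, 514 distances over 1 Mb, 3.79% of all, took up 49.2% of the total length between summits. Called Ldb1 regions thus came in dense stretches separated by long ones without a call. The background of both libraries differed between such stretches, as given below, and its part in this pattern was not tested.

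**Figure D5:**
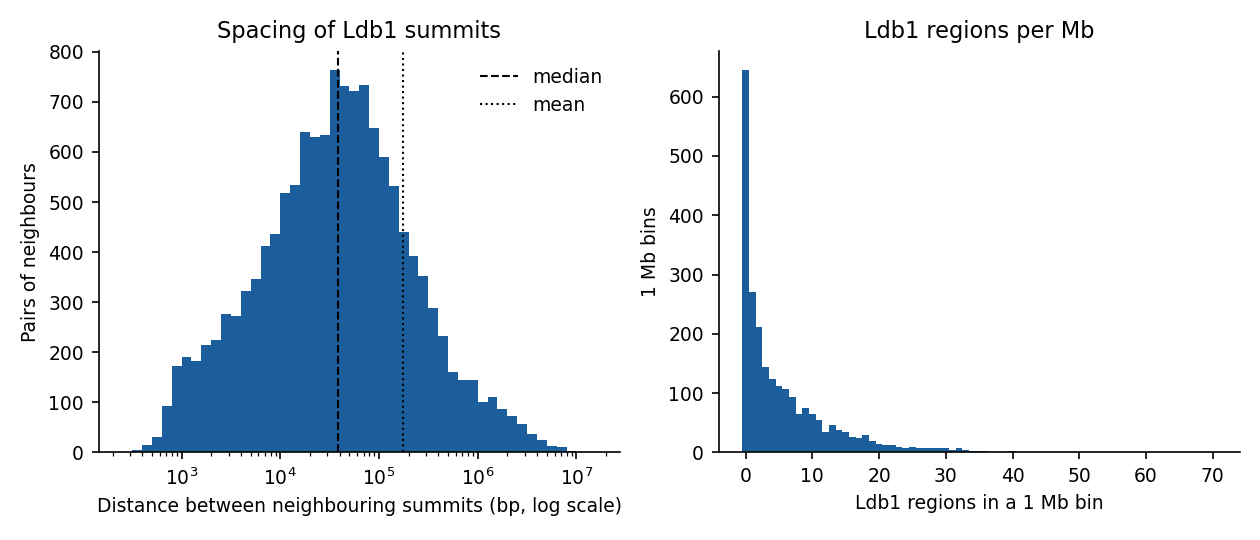
Left, distances in bp (log scale) between neighbouring Ldb1 summits, with the median of 38.2 kb dashed and the mean of 176 kb dotted. Right, number of Ldb1 regions in each of 2359 bins of 1 Mb, of which 645 have none and the fullest has 70.

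Strong regions had near neighbours more often than weak ones. Another Ldb1 region lay within 10 kb, on either side, of 33.2% (31.5 to 34.9) of regions with 7 tags and of 43.1% (41.1 to 45.1) of those with 15 to 29 tags. These shares are not comparable with the 23.6% above, which counts distances between successive summits. The share was 53.8% (50.3 to 57.3) at 30 to 59 tags, 56.9% (50.6 to 62.95) at 60 to 119 and 60.9% (47.9 to 72.9) at 120 or more. The last 3 intervals overlap. Around all summits pooled, Ldb1 density was still 1.43 times the flanks at 500 to 1000 bp and 1.20 times at 1 to 2 kb. Joining windows up to 500 bp apart lowered the 23.6% of successive summits within 10 kb to 20.6%. How far edges of tall sites called as separate regions add to the neighbour shares was not tested. The median distance to the nearest region went from 21.7 kb at 7 tags to 5.85 kb at 120 or more. Seen from the other side, regions within 5 kb of another had a scaled ratio of Ldb1 to IgG of 16.96 (16.4 to 17.5) and a median of 11 tags in the best window, and those at least 500 kb from any other had 9.81 (8.70 to 11.1) and 8 tags. The ratio outside regions also differed with crowding, from 0.791 in 1 Mb bins without a region to 1.55 in bins with 21 to 70. How much of the contrast in ratio and tags this background makes up was not tested.

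Summits within 12500 bp of the next were taken as a group. This gave 9865 groups, of which 7525 were single regions. The other 2340 groups held 6039 regions, or 44.5%. There were 1542 groups of 2 regions, with a median span of 4.67 kb between their outer summits, 661 of 3 or 4 regions spanning 11.2 kb, and 137 of 5 to 20 regions spanning 22.5 kb. The strongest region of a group had a median of 10 tags in single regions, 14 in groups of 2, 20 in groups of 3 or 4 and 33 in the largest groups, where more regions also give more chances of a high count. Tags per region were 15.3, 17.7, 20.1 and 23.6 in the same order.

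The largest group had 20 regions over 72.4 kb on chromosome 8, from 125155701 to 125228400, with 1031 Ldb1 and 18 IgG tags in its regions. It held both tall and low sites. The strongest, from 125194901 to 125196300, had 213 Ldb1 tags in its best window, 285-fold above expectation, and no IgG tag. Further along the chromosome, the region from 125207301 to 125209400 had 184 tags (202-fold), and before it the region from 125172601 to 125174400 had 127 tags (116-fold). A further one, from 125170101 to 125171500, had 76 tags. Of the remaining regions, 4 had only the smallest count of 7 tags. The next largest group, with 11 regions over 43.8 kb on chromosome 1 from 135883401 to 135927700, had 275 Ldb1 and 18 IgG tags, and its strongest region held 73 tags. The third, also of 11 regions, covered 56.7 kb on chromosome 17 from 35430801 to 35488300 with 232 Ldb1 and 14 IgG tags, and its strongest region held 51. Their median best-window counts were 13.5, 13 and 11 tags, against 10 over all regions. Counts of 7 to 9 tags were found in 9 of 20, 4 of 11 and 3 of 11 regions, against 45.5% of the whole list.

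Counts per 1 Mb were also uneven. Among 2359 bins with at least 500 kb covered, the median was 3 regions and the mean 5.73, 645 bins (27.3%) had none, and the variance of the number was 9.83 times its mean. The fullest 236 bins, 10% of all, held 40.7% of the regions. The emptier 50% of bins held 6.29%. Chromosome 10 had the densest stretch, with 70 regions from 79000001 to 80000000 and 69 in the next Mb, from 80000001 to 81000000. Their regions held 1337 and 1431 Ldb1 tags against 80 and 88 IgG tags, with a median of 11.5 and 11 tags in the best window and at most 77 and 148. Next was the bin from 125000001 to 126000000 on chromosome 8, with 58 regions, 2263 Ldb1 and 77 IgG tags, which contains the group of 20. The chromosome 8 bin had a median of 11 tags and at most 213. All 3 medians were thus close to the 10 tags of the whole list.

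The background outside regions moved with the number of regions in a bin, and in opposite directions in the 2 libraries. In bins without a region, Ldb1 tag density was 0.889 and IgG density 1.12 times the mean of all bins, a ratio of 0.791 (0.788 to 0.793). In bins with 21 to 70 regions the densities outside regions were 1.25 and 0.805, a ratio of 1.55 (1.54 to 1.56). The 4 classes between lay in order, at 0.898, 1.01, 1.13 and 1.30. Spearman's rho between the density of regions and the outside ratio was 0.844 over the 2359 bins. Flanks 3 to 5 kb from a summit were also high in Ldb1, at 1.46 times an even spread over the covered genome, and low in IgG, at 0.842 times, a ratio of 1.74 (1.72 to 1.76), and some of these flanks contain other regions. Where the expectation also had to match the Ldb1 density in the surrounding 50 kb, 11083 regions were called, 29.2% of bins had none and the fullest had 48. With IgG left out of the expectation, 20.9% of bins had none.

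The longest distances between neighbouring summits were 12.9 Mb on chromosome 15, from 12687046 to 25595335, 12.3 Mb on chromosome 1, from 107821592 to 120138926, and 9.41 Mb on chromosome 3, from 41839016 to 51245051. These stretches were not empty of tags. Between points 2 kb inside the bounding summits, the first held 18192 Ldb1 and 22264 IgG tags, a scaled ratio of 0.719 (0.705 to 0.733). The ratio was 0.701 (0.686 to 0.716) in the second and 0.711 (0.694 to 0.728) in the third. All 3 were thus well sampled by both libraries, with fewer Ldb1 than IgG tags for the library sizes and no window that passed the rule.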

How the data were processed

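Chromatin immunoprecipitation tags of 2 libraries, Ldb1 and IgG, were analysed; the Tal1 and Gata2 files were not used here. The deposited files list 1 aligned 25 bp tag per line with chromosome, start, end, class code, score and strand, without a header, normalization or removal of repeats. The deposited score is 0 in every line and was not used. The class codes U0, U1 and U2 were read as 0, 1 and 2 mismatches. Per the submitters' processing notes the positions are in mm8; the sources used here do not state an aligner or filters.

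Tags of chromosomes 1 to 19 were counted once per 5' end and strand and moved 56 bp (Ldb1) or 54 bp (IgG) towards the fragment centre. The expectation of a window was the mean Ldb1 count of the genome or, where larger, the density of IgG within 1, 5 or 10 kb, scaled by all kept tags. Tests were run where a window held 3 tags or more, with adjustment over all windows with a tag. The best window of a region has its most tags and gives its fold. Bins of 10 kb over 5 times the IgG mean were left out of the tag pairs. The calling was also run on simulated tags with planted sites, where both libraries had the same background density. That setting does not cover backgrounds that differ between the libraries, as they did here. Overlapping windows and neighbouring regions are not independent, and repeated tags, whose origin was not tested, may not be. Intervals and the count of 3 that a 0 allows thus cover counting error only. Python 3.11.15, numpy 2.4.6, pandas 2.3.3, scipy 1.17.1 and matplotlib 3.10.9 were used.

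Members and settings were chosen with earlier results of these data known. Regions were named by a rule: the one with most tags on each autosome, and the 3 that were widest, nearest the median fold or richest in IgG; also the 3 largest groups, longest distances and fullest 1 Mb bins. No mm8 sequence was used here. Alternatives changed repeats, thresholds, windows, depth, mismatches, expectation, scaling, joining and shift.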

Additional observations from a re-analysis of the deposited data

Results flagged for a closer look

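Chromosome X was outside the comparison, and called together with the autosomes by the same rule it had 180 Ldb1 regions, against 5 when the libraries were exchanged. These held 2571 Ldb1 and 174 IgG tags. Their density was 1.47 per covered Mb (1.27 to 1.71), below that of every autosome. Chromosome X as a whole had 190283 kept Ldb1 and 213154 IgG tags, a ratio of 0.785 (0.780 to 0.790) when scaled by the autosomal totals.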

How the results depend on the processing

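The number of regions stayed within 1.5 times of 13564 in 12 of 13 settings. The exception was repeated tags kept, with 81185 regions, 17.8% of the Ldb1 tags inside, a median fold of 7.18, a median distance of 13.6 kb and 41.1% of summits within 10 kb of the next; the cause was not tested. For the other settings the values of tags inside, median fold, median distance and summits within 10 kb follow where they left the counting interval. At least 8-fold gave 5.37%, 12.1-fold, 43.2 kb and 22.1%. A false discovery rate of 0.001 gave 5.04%, 13.2-fold, 50.2 kb and 20.4%. Windows of 200 bp gave 5.33%, 15.4-fold, 34.8 kb, 26.3% and a median width of 300 bp, and windows of 800 bp 6.72%, 7.37-fold, 41.6 kb, 20.1% and 1400 bp, since a region cannot be narrower than a window. Thinning to the IgG tag number gave 5.53%, 12.2-fold, 44.3 kb and 21.8%, and tags without a mismatch 6.38%, 11.1-fold and 39.5 kb. The genome mean as the only expectation gave 6.9997%, 12.1-fold, 33.95 kb and 25.4%, and Ldb1 tags in 50 kb as a further expectation, added after the data were seen, 5.39%, 9.90-fold, 52.8 kb and 17.3%. Scaling by bins without a region gave 6.15% and 10.7-fold. At least 5 IgG tags in 10 kb left 5.97% of tags inside. Joining windows up to 500 bp apart gave 41.3 kb and 20.6%, and no tag shift 5.77%, 40.7 kb and 22.4%. The members of the list changed more than their number in some settings. Tags without a mismatch gave 13459 regions, but only 11099 of the 13564 were shared. Windows of 200 bp shared 11293, windows of 800 bp 11065 and no tag shift 11909. The fewest, 9378, were shared at a false discovery rate of 0.001. All 13564 were shared with the genome mean only, scaling by bins without a region, and joining. The share of Ldb1 tags in the fullest 1% of bins was 5.80% with repeats, 5.07% without mismatches, 8.06% in 1 kb bins and 2.88% in 100 kb bins. The density at summits over the flanks was 13.6 with repeats, 13.1 without mismatches and 13.9 with flanks 8 to 10 kb away. With 1 library an antibody there is no replicate to leave out. No paired analysis was possible because each antibody has 1 library. At this depth a region needed at least 7 tags in 400 bp, so weaker sites were not detectable.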
